A study of Caenorhabditis elegans with 7 samples.

Results

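The genes sad-1 and cdka-1 of the nematode Caenorhabditis elegans, which encode a presynaptic protein kinase and the activating subunit of another, were followed across 7 arrays from L1 larvae, some of sorted DD motor neurons and some of the whole animal's cells. They were taken by name from a table in which the authors listed 236 probe sets as higher in DD neurons, and they are 2 of the 201 genes that this table names. Each is measured by 1 probe set there, 193978_at for sad-1 (sequence name F15A2.6) and 187468_at for cdka-1 (T23F11.3). A probe set is a group of short probes on the array that read the same transcript. Because the list was chosen on these same arrays, the higher level of either gene in DD neurons is described here and not tested.

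DD neurons are inhibitory motor neurons of the ventral nerve cord, which release GABA and relax body wall muscle. The study asked which transcripts they carry at a higher level than the larva as a whole. DD neurons had 4 arrays and all cells had 3, each an Affymetrix genome array with values on the log2 scale. The DD neurons were sorted by fluorescence from strain CZ8332, which carries the transgene juIs223 with mCherry under the ttr-39 promoter and GFP under the ttx-3 promoter, integrated on chromosome IV. By the design text the sort was for mCherry, whereas the sample characteristics give GFP. The design text was followed here, and the conflict bears on which cells were sorted. The all-cell RNA came from the wild-type strain N2, with no transgene named, and holds RNA of every cell type, DD neurons included. The worm cultures of both groups were grown on the bacterial strain NA22, and all larvae hatched without food, so that growth was arrested. A sort by the ttr-39 reporter selects DD neurons only as far as the reporter is confined to them, and strain, sorting and cell type changed together in every array and cannot be told apart.

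SAD kinases are serine/threonine kinases of the AMPK-related family. In C. elegans, SAD-1 acts at the presynaptic side of neurons, where it is needed for the clustering of synaptic vesicles at active zones and for keeping vesicle proteins in the axon. CDKA-1 is the worm relative of the mammalian activator p35: it has no kinase activity of its own and turns on the cyclin-dependent kinase CDK-5. CDK-5 is known in worm neurons for the transport of synaptic vesicle and dense core vesicle cargo, and in DD neurons for the move of synaptic components when these neurons rewire at the end of the first larval stage. In the RefSeq assembly WBcel235, sad-1 lies on chromosome X and cdka-1 on chromosome III. No sequence is printed, and the position of the probes within the genes was not analysed here.

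Pairs of arrays correlated across probe sets at 0.936 or more, within or between groups, and the array medians lay between 5.21 and 5.38. Of 9 markers of GABAergic D-type neurons, 7 could be named, and 6 of these were called higher by limma at a Benjamini-Hochberg adjusted p under 0.05, where 0.191% of the 22548 tested probe sets were called higher and 0.226% lower. The median log2 difference of the 7 named markers was 2.92, against 0.06 for all tested probe sets. No marker of AIY neurons or of cholinergic neurons could be named, and the table names none of the pharynx list either. The lists for body wall muscle, intestine, epidermis and germ line had 1 named marker each out of 7, 5, 6 and 3. These were ttn-1 (log2 difference 1.18), acdh-1 (1.86), ptr-24 (1.03) and pgl-1 (1.07), none of which passed limma's threshold (adjusted p 0.134, 0.189, 0.0973 and 0.224). Their DD levels overlapped those of all cells for acdh-1 and pgl-1, and their part in the values of sad-1 and cdka-1 was not tested. All named markers had been selected as higher on these arrays, so they give no measure of how pure the sort was.

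The kinase gene sad-1 was higher in DD neurons, by 2.16-fold. A lower level in bulk RNA can come from fewer cells that carry a transcript or from less of it in each cell, and these arrays cannot tell these apart. In DD neurons its log2 value was 9.02 in replicate 1, 8.72 in replicate 2, 8.51 in replicate 3 and 8.75 in replicate 4. In all cells it was 7.56, 7.62 and 7.72 in replicates 1 to 3. The 4 DD arrays lay above the 3 all-cell arrays with no overlap, and the lowest DD array exceeded the highest all-cell array by 0.79. The group means were 8.75 ± 0.21 (SD, n = 4) and 7.64 ± 0.08 (SD, n = 3), a log2 difference of 1.11 ± 0.17 (SE from limma's fit over all probe sets). Taken array by array, the 12 differences between a DD array and an all-cell array ran from 0.79 to 1.45, or from 1.73-fold to 2.74-fold.

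The CDK-5 activator gene cdka-1 was 2.33-fold higher in DD neurons, with a wider spread among the DD arrays. It stood at 9.15 in DD replicate 1, 8.36 in replicate 2, 8.24 in replicate 3 and 8.50 in replicate 4. The all-cell arrays read 7.24, 7.37 and 7.42. Again no all-cell array reached any DD array, with 0.83 between the nearest pair. DD replicate 1 was far the highest, 0.58 above its group mean, while the other 3 DD arrays lay within 0.06 to 0.32 below that mean. The means were 8.56 ± 0.40 (SD, n = 4) and 7.34 ± 0.09 (SD, n = 3), a log2 difference of 1.22 ± 0.23 (SE). The 12 differences between single arrays ran from 0.83 to 1.91, or from 1.77-fold to 3.76-fold.

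**Figure D1:**
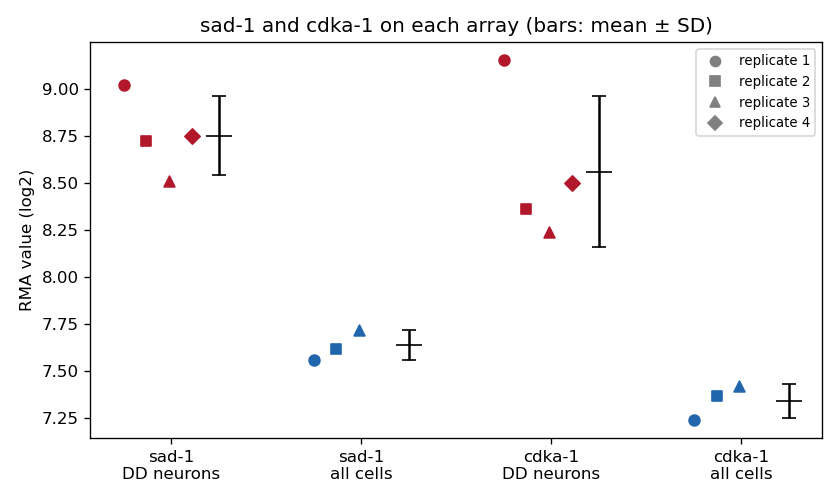
RMA values (log2) of sad-1 and cdka-1 on the 4 DD arrays (red) and the 3 all-cell arrays (blue), with the marker shape giving the replicate number and black bars the mean ± SD. Both genes are separated without overlap, by 0.79 for sad-1 and 0.83 for cdka-1, and DD replicate 1 is the highest array in both.

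Set against the whole array, larger differences than those of sad-1 and cdka-1 occurred in both directions. A larger log2 difference than that of sad-1 was found for 235 of the 22548 tested probe sets (1.04%), and a larger one than that of cdka-1 for 170 (0.754%). Within the authors' list of 236, whose differences ran from 1.00 to 6.40 with a median of 1.24, the value of sad-1 was exceeded by 176 probe sets and that of cdka-1 by 130. The value of cdka-1 thus lay just under the list's median and that of sad-1 in its lower part. A log2 difference of at least 1 was found for 349 probe sets (1.55%), and 113 of these were not on the list. A difference of -1 or less was more frequent, in 927 probe sets (4.11%). Every DD array above every all-cell array was a common pattern, found in 1573 probe sets (6.98%) and in 222 of the 236 listed ones, and the opposite order was found in 6.64%. The distance between the groups was less common: 61 probe sets (0.271%) had a larger distance between the lowest DD and the highest all-cell array than sad-1, and 52 (0.231%) a larger one than cdka-1. These ranks follow in part from how the list was made and support nothing further.

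**Figure D2:**
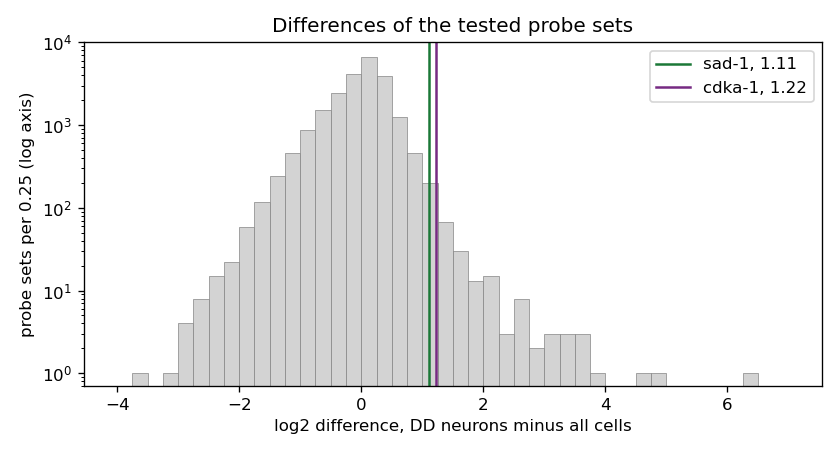
Number of tested probe sets (log axis) by log2 difference between DD neurons and all cells, in steps of 0.25, with vertical lines at sad-1 (1.11) and cdka-1 (1.22). Both genes lie at the start of the upper tail, with 235 and 170 probe sets beyond them.

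The all-cell arrays gave close values for both genes. The SD of the 3 all-cell arrays, 0.08 for sad-1 and 0.09 for cdka-1, was undercut by 13.4% and 17.4% of tested probe sets, whose median SD was 0.24. Among DD arrays the SD of sad-1 (0.21) lay below the median of all tested probe sets (0.32) and that of cdka-1 (0.40) above it. On each array both probe sets were well above the array median, brighter than 78.8% to 91.9% of tested probe sets for sad-1 and 75.4% to 92.5% for cdka-1. The deposited values carry no detection call, and the brightness of different probe sets does not rank the amounts of their transcripts.

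Within each group, the arrays ranked in the same order for sad-1 and cdka-1 in the deposited values. Apart from the difference between the groups, their levels were not especially close, by the profile distance given below. With the group means removed, 2.84% of tested probe sets were nearer to cdka-1 than sad-1 was. From sad-1, 8.39% were nearer than cdka-1. In both genes the DD arrays ranked replicate 1, 4, 2 and 3 from high to low, and the all-cell arrays ranked 3, 2 and 1. This order in both groups was shared by 163 of the 22548 tested probe sets (0.723%), and by 5 of the 236 listed ones (2.12%). Both counts include sad-1, from which the order was taken, and cdka-1, so the 2 shares measure no excess among listed probe sets. Some steps of the order were small, such as 8.75 against 8.72 for sad-1 in DD replicates 4 and 2. Besides sad-1 and cdka-1, the table names the genes of the 3 other listed ones as dyn-1 (dynamin, which pinches off endocytic vesicles), ehs-1 (the Eps15 relative in synaptic vesicle endocytosis) and clh-2 (a chloride channel of the ClC family). DD replicate 1 was the highest DD array in 35.4% of tested probe sets and 33.1% of listed ones, so its place at the top is common. With each array centred on its control probe sets, sad-1 was highest in DD replicate 4 and cdka-1 in replicate 1, and the orders were then not the same.

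The log2 ratio of cdka-1 to sad-1 was nearly level over 6 of the 7 arrays. About its mean over the arrays it lay at -0.13, -0.03 and -0.01 in DD replicates 2, 3 and 4 and at -0.10, -0.02 and -0.07 in the all-cell arrays. DD replicate 1 stood at 0.36. The difference of cdka-1 between the groups exceeded that of sad-1 by 0.11 over all arrays and by 0.01 without DD replicate 1, when the SD of the ratio was 0.06 among DD arrays and 0.04 among all-cell arrays. The larger fold of cdka-1 thus rested on that array, and without it the log2 differences were 1.02 for sad-1 and 1.03 for cdka-1.

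To find the genes with the most similar pattern, the mean of each probe set over the 7 arrays was subtracted and the root mean square difference between profiles was taken, in log2 units. The profile nearest to cdka-1 among all other 22547 tested probe sets was that of sad-1, at a distance of 0.151. From sad-1, 4 tested probe sets were nearer than cdka-1. The median distance over the 200 other named genes was 0.453 from sad-1 and 0.475 from cdka-1, and unc-10 was the farthest named gene from both (2.636 and 2.587). The distance takes in the difference between the groups, on which the list was chosen. With the group means removed, 2.84% of tested probe sets were nearer to cdka-1 than sad-1 was, and 8.39% were nearer to sad-1 than cdka-1 was. Leaving out single arrays, sad-1 ranked between 1 and 7 from cdka-1, and cdka-1 between 2 and 16 from sad-1. Without DD replicate 1 the distance between them fell to 0.042.

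The named genes nearest to sad-1 have varied roles. The nearest was set-26, which encodes a SET-domain chromatin protein, at a distance of 0.136, with DD arrays at 8.53, 8.72, 8.31 and 8.60 and all-cell arrays at 7.39, 7.38 and 7.53. Its log2 difference was 1.11, as in sad-1, but its highest DD array was replicate 2. The probe set of set-26 is marked as matching several transcripts. T08A11.2, named sftb-1 in RefSeq and encoding a splicing factor subunit, followed at 0.139 with a difference of 1.30. After cdka-1 came ehs-1 (0.171) and unc-76 (0.176), whose product is an adaptor for kinesin transport needed in axon growth. In ehs-1 the DD arrays read 9.86, 9.42, 9.09 and 9.42 and the all-cell arrays 8.10, 8.34 and 8.81, so the all-cell arrays were more spread than in sad-1.

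After sad-1, the named genes nearest to cdka-1 were srd-73, flp-15, ehs-1 and nlp-13. The gene srd-73 belongs to a family of chemoreceptor-type membrane proteins and lay at 0.190, with DD arrays at 8.76, 8.28, 8.14 and 8.63 and all-cell arrays at 7.14, 6.96 and 7.04. The neuropeptide precursor gene flp-15 lay at 0.191 and had its top value, 12.29, in DD replicate 1 too, with the other DD arrays at 11.30 to 11.56. In nlp-13, another neuropeptide precursor gene at 0.207, DD replicate 1 was again highest at 11.09, and the other DD arrays ran from 9.89 to 10.67. All 4 of these shared the high DD replicate 1 of cdka-1, with ehs-1 at 0.199.

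**Figure D3:**
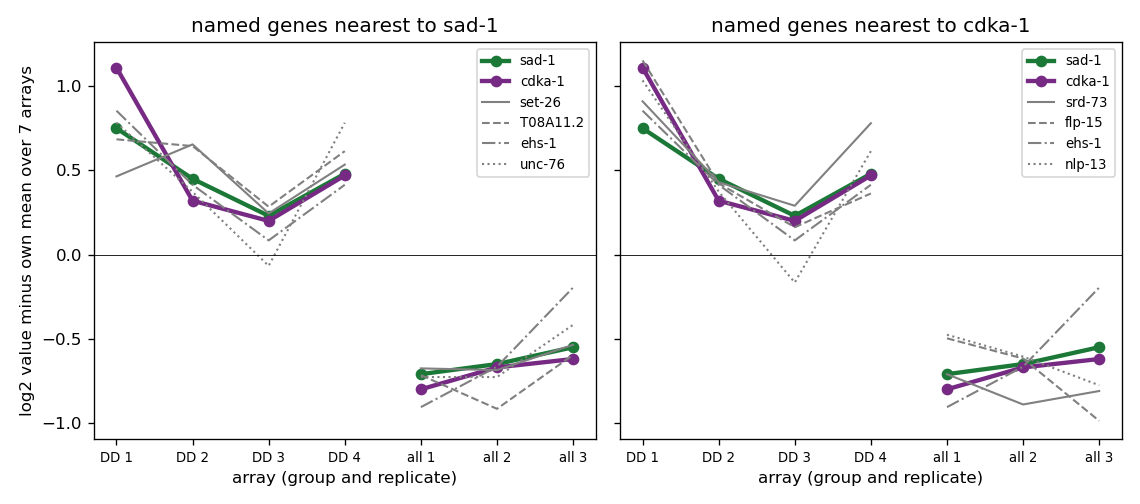
Log2 value minus the gene's own mean over the 7 arrays, by array, for sad-1 (green), cdka-1 (purple) and the other named genes nearest to sad-1 (left) and to cdka-1 (right), in grey. The lines of sad-1 and cdka-1 run close together, at a distance of 0.151, and part most at DD replicate 1 (0.75 and 1.11).

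Of 24 genes listed for the SAD-1 and CDK-5 pathway, sad-1 and cdka-1 themselves were the 2 that the deposited table names. The kinase gene cdk-5, the STRAD gene strd-1, the neurabin gene nab-1, the scaffold genes syd-1 and syd-2, and the cyclin Y gene cyy-1 and its kinase partner gene pct-1 could not be followed, because gene names came from that table alone. Nothing can be said of their levels here. The list therefore gives no count of called genes beyond sad-1 and cdka-1.

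Of 18 genes listed for the active zone and vesicle fusion, 5 could be named, and limma called 1 of them higher and 0 lower, against 0.191% and 0.226% of all tested probe sets. With p under 0.05 unadjusted, all 5 were higher, as were 1369 of the 22548 tested probe sets. The called gene was the RIM gene unc-10, an organiser of the active zone, with a log2 difference of 6.40 ± 0.24 (SE, adjusted p = 8.47e-05). The RIM-binding protein gene rimb-1, listed under the older name tag-168, had 1.14 ± 0.26 (SE), with DD arrays from 8.85 to 9.45 and all-cell arrays from 7.65 to 8.58. For the SNARE partner gene unc-18 the difference was 1.01, for the SNAP-25 gene ric-4 1.01 and for the syntaxin gene unc-64 1.00, at adjusted p of 0.0804 to 0.111 (limma). The median of the 5 was 1.01, against 0.06 for all tested probe sets, but all 5 could be named only because they were listed at 2-fold or more on these arrays, which fixed their direction and the least size of that median. The differences of sad-1 and cdka-1 were thus of the size found in these genes other than unc-10, and none of the differences between genes was tested.

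Among 31 other protein kinase genes, 2 could be named, and limma called neither in any direction (0 of 2, against 0.191% higher and 0.226% lower over all tested probe sets). Both were up at p under 0.05 unadjusted, which their listing at 2-fold or more on these arrays made likely in advance. The MAP kinase kinase kinase gene nsy-1 had a log2 difference of 1.01 ± 0.26 (SE, adjusted p = 0.15), and the giant muscle protein kinase gene ttn-1 had 1.18 ± 0.29 (SE, adjusted p = 0.134). In nsy-1 the DD arrays ran from 8.70 to 9.15 and the all-cell arrays from 7.47 to 8.52, a wider all-cell spread than in sad-1. The table names further kinase genes, 3 of which were picked after their values were seen: the MAP kinase kinase kinase gene zak-1 (1.29), the vaccinia-related kinase gene vrk-1 (1.24) and the EGF receptor gene let-23 (1.24). Limma called none of these 3 (adjusted p 0.186, 0.207 and 0.176). Their SEs, 0.35 to 0.38, were larger than those of sad-1 and cdka-1, and the groups overlapped in vrk-1. The all-cell means of zak-1 (4.05 ± 0.82, SD) and vrk-1 (4.38 ± 0.68, SD) lay below the array medians. Without a detection call, it is not known whether these values stand above background.

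**Figure D4:**
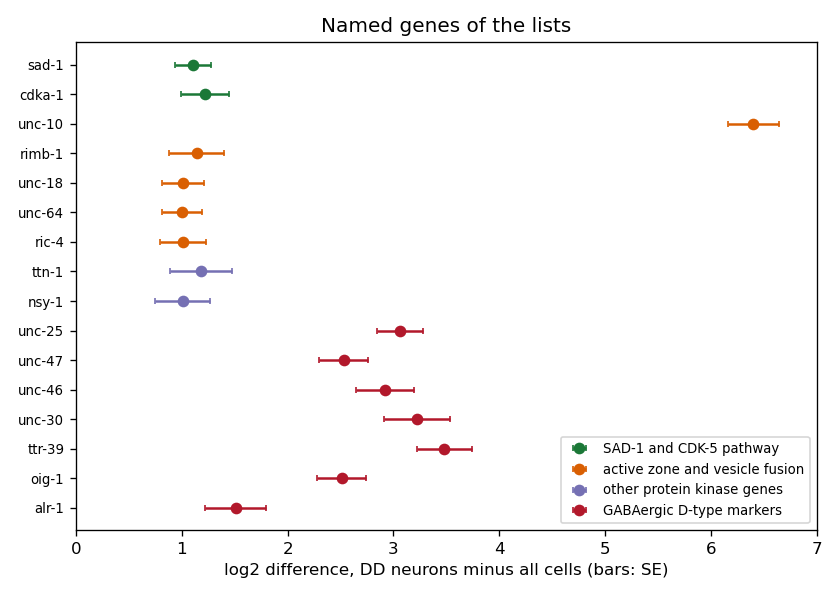
Log2 difference between DD neurons and all cells, with SE bars, of sad-1 and cdka-1 (green) and of the genes that could be named among active zone and fusion genes, other kinase genes and D-type markers. The pair lies near 1, with rimb-1, unc-18, unc-64, ric-4, ttn-1 and nsy-1, and below the D-type markers, which run from 1.51 for alr-1 to 3.48 for ttr-39.

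The 7 named D-type identity genes had larger differences than sad-1 and cdka-1, which was not tested. The smallest was that of the homeobox gene alr-1, at 1.51 ± 0.29 (SE), and the largest that of ttr-39, whose promoter drives the strain's mCherry, at 3.48 ± 0.26 (SE). The GABA synthesis gene unc-25 had 3.06 ± 0.22 (SE).

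In the RefSeq gene order, the protein-coding gene next to cdka-1 on chromosome III, T23F11.2, is also among the named genes. It had a log2 difference of 1.05 ± 0.28 (SE), at 4.79, 5.40, 5.98 and 5.32 in DD neurons and 4.53, 4.32 and 4.11 in all cells. Its highest DD array was replicate 3, the lowest in cdka-1, and its distance from the cdka-1 profile was 0.597, above the median of named genes. Its probe set is marked as matching several transcripts, as are those of some other named genes. It lay below the array median in DD replicate 1 and in every all-cell array. Of 196 named genes placed among protein-coding genes, 24 (12.2%) had a direct neighbour that was also named. No such share for genes drawn at random is given here, so the 12.2% shows neither excess nor lack. Neither neighbour of sad-1, srd-51 and H06A10.1, is on the list.

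The size of both differences depended on the scale between arrays. The 77 array control probe sets, some of which read worm genes like actin, were on average 0.36 higher in DD neurons (5.85 ± 0.13, SD, n = 4, against 5.49 ± 0.09, SD, n = 3). With each array centred on these controls, the log2 difference was 0.76 for sad-1 and 0.86 for cdka-1. The median of all tested probe sets then moved from 0.06 to -0.30. Relative to that median, sad-1 stood at 1.06 and cdka-1 at 1.17 on both scales. This had to be so, since centring shifts all probe sets of an array by the same amount. The DD arrays of both still lay above all 3 all-cell arrays on the control scale, by 0.40 and 0.38, where 211 tested probe sets (0.936%) were separated in that way. Limma's calls over all probe sets, 43 higher and 51 lower as deposited, were 40 and 393 on the control scale, and 47 and 28 with each array centred on its median.

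**Figure D5:**
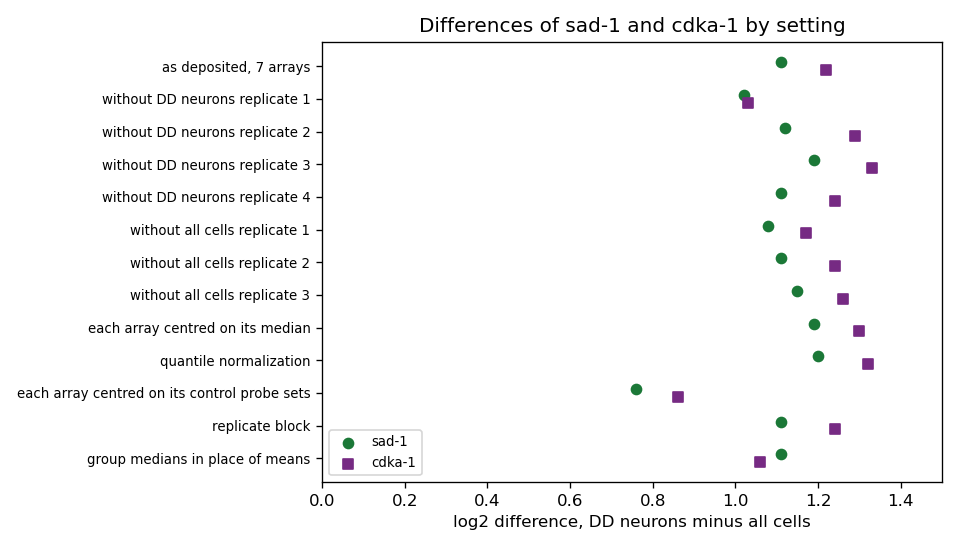
Log2 difference between DD neurons and all cells of sad-1 (circles) and cdka-1 (squares) as deposited and under each alternative. The values run from 0.76 to 1.20 for sad-1 and from 0.86 to 1.33 for cdka-1, lowest where arrays are centred on their control probe sets, and the pair comes closest without DD replicate 1.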

How the data were processed

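Each array was 1 sample, grouped by its title. Per the labels, a few nanograms of total RNA were amplified with a NuGEN kit. The log2 values were deposited by the authors and made with RMA, per the submitters' processing notes; RMA corrects background, normalizes arrays and summarises probes. The sources used here do not name software, version, scan dates or batches. The deposited log2 differences equal those of the group means (largest deviation 1e-14), and score and fold columns were not used.

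Limma 3.58.1 (R 4.3.3; lmFit and eBayes) was fitted to 22548 probe sets on 7 arrays, without 77 array controls, with 5 residual and 3.13 prior degrees of freedom. Calls used two-sided p-values with Benjamini-Hochberg adjustment, at 0.05. On simulated data for this comparison, 32.6% of 2-fold and 91.6% of 4-fold changes over 22548 probe sets were recovered. Changes of 8-fold and 16-fold were simulated in the same runs, and recovery depends on how many changes of each size are put in. The simulation used independent normal noise with limma's fitted variances and no shift shared within an array, so recovery on the real arrays may differ. The labels do not say whether replicates were separate cultures, so p-values measure the spread between arrays, which may be technical. The number of arrays limits precision. Python 3.11.15, pandas 2.3.3 and numpy 2.4.6 made the other tables.

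Gene names came from the deposited table, and 198 of its 201 genes matched RefSeq (WBcel235). Where a gene had several probe sets, one not marked as matching several transcripts was preferred, then the brightest. Marked probe sets were used for set-26, unc-76, flp-15, unc-64, ric-4, ptr-24, pgl-1, zak-1, vrk-1, let-23, dyn-1, clh-2 and T23F11.2. Their values may not be specific to the named gene. Named genes were sad-1 and cdka-1, the nameable members of the lists, and the 5 nearest profiles of each; the members and lists were chosen with earlier results of these data known. T23F11.2, dyn-1, clh-2 and 3 kinase genes were named after their values were seen. Alternatives were single arrays left out, other scalings, a filter on dim probe sets, controls kept, group medians and a replicate block.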

Additional observations from a re-analysis of the deposited data

Results flagged for a closer look

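Among 30 genes of the text, the 4 DD arrays of each were examined for a single array far from the other 3, which chance gives in about 1 in 20 groups. It was found in 2 genes. In T08A11.2, near to sad-1 in profile, DD replicate 3 lay at 7.89 and the others at 8.22 to 8.29. In unc-25, DD replicate 2 lay at 10.84 and the others at 11.39 to 11.46. DD replicate 1 of cdka-1 was not among them, with a gap to the next array of 0.708 of the group's range.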

How the results depend on the processing

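The log2 differences of sad-1 and cdka-1 kept their direction under all 12 alternatives, which their choice as higher on these arrays made likely in advance. In 11 of 12 alternatives each difference moved by less than its SE (0.17 for sad-1 and 0.23 for cdka-1). The exception was centring on the array controls (0.76 and 0.86). Leaving out 1 array gave 1.02 to 1.19 for sad-1 and 1.03 to 1.33 for cdka-1, lowest without DD replicate 1. With the replicate block they were 1.11 and 1.24. Limma's counts of called probe sets were less stable: 6 to 23 higher and 0 to 39 lower with 1 array left out, with 0 lower without DD replicate 1 (1779 at an unadjusted p under 0.05). They were 2 higher and 0 lower with the replicate block (2075 lower at an unadjusted p under 0.05), 65 and 93 without dim probe sets, and 28 lower with median centring, 33 with quantile normalization and 393 with control centring. The numbers were not taken as pairs, because the labels do not say that a number marks a shared culture or day. Same-numbered arrays correlated at -0.01, 0.07 and 0.09 in their deviations, and differently numbered ones at -0.19 to 0.15. These values do not settle whether arrays were paired. Probe sets separated with DD higher numbered 4123 after median centring, 211 after control centring and 2006 to 3238 with 1 array left out. Those with DD lower numbered 6134 after control centring and 1883 to 2785 with 1 array left out. The calls among listed active zone genes (1) and kinase genes (0) did not change in number. The scales above and the nearness of profiles with arrays left out or group means removed are alternatives, of which the nearness ones were chosen after seeing the data. Another background correction was not run, since probe-level values were not used here. With no detection call, it is not known whether low values such as those of T23F11.2, zak-1 and vrk-1 stand above background.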
